A study of Mus musculus with 11 samples.

Results

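The transcripts described here encode the replacement histone variants of mouse embryonic stem cells (ESCs), which are members of the H2A, H3 and H1 families whose messages are described as polyadenylated. They were taken by symbol, as the rows H2afz, H2afv, H2afx, H2afj, H2afy, H3f3a, H3f3b, Cenpa and H1f0, and all 9 were found among the 23284 genes listed in each of 11 RNA-seq libraries. All 9 were tested in every comparison. The libraries fall into 5 groups. WT ESCs gave 3 libraries of polyadenylated RNA. Ribodepleted total RNA was sequenced from WT cells and from cells with a knockout of Tet1, Tet2 and Tet3 (triple knockout, TKO), with 2 libraries per group. Each genotype was sampled untreated (0 h) and after α-amanitin, which blocks RNA polymerase II, at 10 µg/ml for 4 h. The 0 h samples are labelled as untreated, although the protocol text also mentions water as a vehicle. All cells grew on gelatin in serum and leukaemia inhibitory factor, and the labels do not say whether TKO cells were 1 clone or whether replicates came from separate cultures. P-values therefore measure only the spread between these libraries.

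Canonical histones are made in S phase from intronless genes whose messages end in a conserved stem-loop and have no poly(A) tail. Replacement variants are instead expressed through the cell cycle, and dedicated chaperones and remodellers place them in chromatin outside replication. H2A.Z, encoded by H2afz and H2afv, occupies promoters and enhancers, H3.3, encoded by H3f3a and H3f3b, fills nucleosomes that turn over, and CENP-A marks the centromere. H2A.X is phosphorylated at DNA breaks, macroH2A carries a large globular domain and is enriched on silent chromatin, and H1.0 is a linker histone known to accumulate in differentiated cells.

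The stem-loop was looked for first, because it separates the classes of histone message. It was searched as the stem GGNNCT, a loop of 4 bases that begins with TT, and the stem AGNNCC, with the NN of both stems complementary. The search covered the coding strand in the 300 bases after each stop codon of NCBIM37 (the mm9 genome used by the authors) with GENCODE M1 models. It was present in 58 of 66 replication-dependent histone genes with such a window, in 1 of the 9 variants and in 0.018% of protein-coding genes whose symbol does not begin with Hist, H2afx included. That variant was H2afx, a single-exon gene, in which the match began 46 bases after the stop codon. The H2afx sequence is shown beside the commonest version, found in 36 replication-dependent genes and here from Hist1h1c, to show how close both are. Capitals mark the paired stems.
H2afx, chr9:44143323-44143338, plus strand: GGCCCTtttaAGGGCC
Hist1h1c, chr13:23831381-23831396, plus strand: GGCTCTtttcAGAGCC
No match was found after the stop codons of H2afz, H2afv, H2afj, H2afy, H3f3a, H3f3b, Cenpa and H1f0. H1f0 is typed as a pseudogene in GENCODE M1 (chromosome 15, 78859152 to 78859689, plus strand), so its window follows an open reading frame of 194 codons that starts at the same base.

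Tet1 and Tet2 followed the genotype labels. Tet1 fell to 30.1 scaled TPM in TKO from 133.5 in WT at 0 h (limma, log2 change -2.11, adjusted p = 1.45e-06) and Tet2 to 7.45 from 51.8 (log2 change -2.64, adjusted p = 3.25e-07), whereas Tet3 stood near 1.45 in both and did not separate the genotypes. All 6 ESC markers were above 1 TPM in every group. Their summed TPM ranged from 1491 to 1551 in TKO and from 2063 to 2241 in WT ribodepleted libraries. Pou5f1 had the highest mean of them in each group. Single markers differed, as the log2 change in TKO at 0 h was -2.08 for Zfp42 and 0.16 for Nanog. The summed TPM of 7 fibroblast markers ranged from 12.8 to 14.53 in TKO, from 8.65 to 10.81 in WT ribodepleted and from 5.87 to 8.94 in WT polyA libraries, with Lum listed at 0 in both WT 0 h libraries. That of 8 germ layer markers ranged from 6.54 to 8.81, from 7.65 to 10.22 and from 18.88 to 19.7 in the same order. In the polyA libraries Sox1 alone had a mean of 13.8 TPM. Whole reads recovered from the TPM steps numbered 72639837 to 82129168 per polyA library and 25507874 to 29781366 per ribodepleted library. The least sequenced variant, H1f0, had between 551 and 984 recovered reads in each ribodepleted library.

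H2A.Z dominated the set. In WT cells at 0 h, H2afz (chromosome 3, 137527451 to 137529886, plus strand) was at 1303 ± 42.7 TPM (SD, n = 2) and made up 42.8% of the summed TPM of the 9 variants. TPM is corrected for length, so levels were set side by side between genes within 1 kind of library. H3f3b (chromosome 11, 115883226 to 115889276, minus strand) followed at 518 ± 3.76 TPM and H2afx (chromosome 9, 44142798 to 44144154, plus strand) at 464 ± 78.4 TPM, and the ranges of these neighbours overlapped. H3f3a (chromosome 1, 182730963 to 182744074, minus strand) lay below both, at 363 ± 5.23 TPM. Cenpa (chromosome 5, 30969150 to 30977200, plus strand) at 132 ± 4.43 TPM and H2afy (chromosome 13, 56174980 to 56237722, minus strand) at 131.5 ± 2.28 TPM could not be ordered. H2afv (chromosome 11, 6327229 to 6344446, minus strand) stood at 58.6 ± 0.20 TPM, H2afj (chromosome 6, 136756769 to 136758595, plus strand) at 43.3 ± 2.07 TPM and H1f0 at 30.2 ± 0.66 TPM (n = 2 each), without overlap between neighbours. The order was another in WT polyA RNA. There H3f3a (938 TPM) stood above H3f3b (662), Cenpa (207) above H2afy (125) and H1f0 (81.4) above H2afj (56.6). The WT 0 h replicates differed most for H2afx, with 409 TPM in WT 0 h replicate 1 and 520 TPM in replicate 2. In TKO cells at 0 h H2afz remained the highest but its part of the sum was 34.4%, while that of H3f3b was 23.2% against 17.0% in WT.

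**Figure D1:**
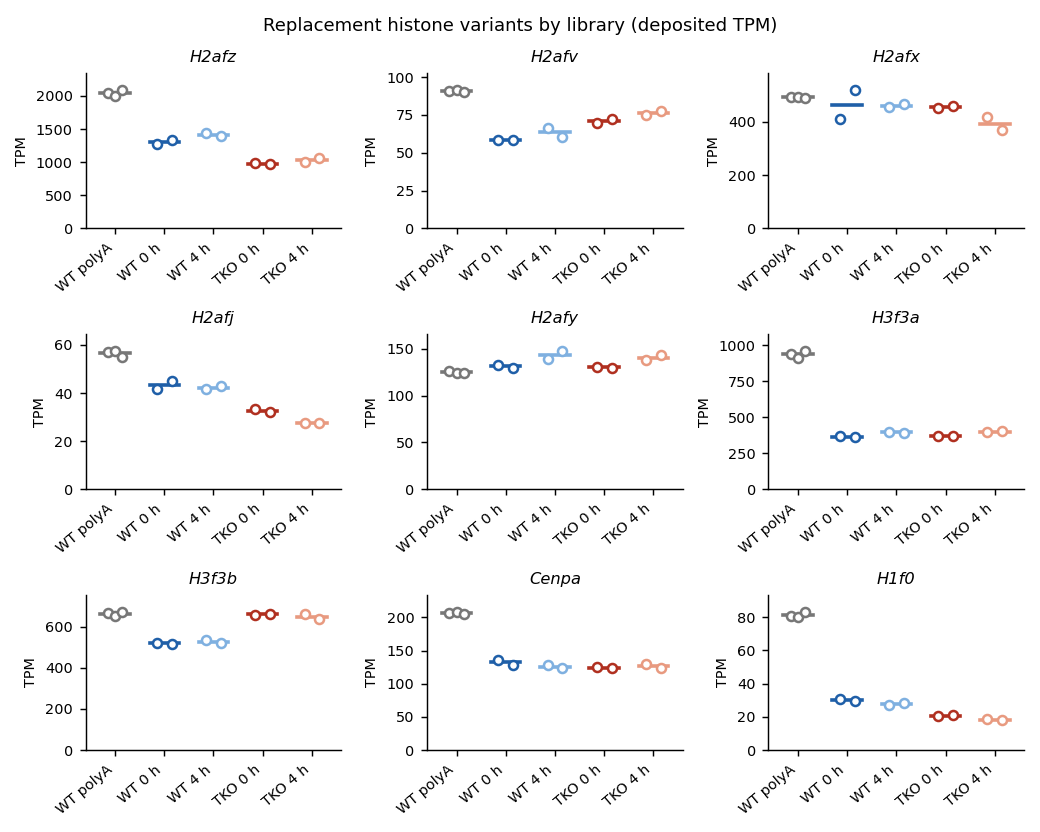
Deposited TPM of each variant in all 11 libraries. Each circle is a library, each bar the group mean, and each vertical axis starts at 0. TKO circles lie below all WT ribodepleted circles for H2afz, H2afj and H1f0, and above them for H3f3b and H2afv.

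Levels in polyadenylated and ribodepleted RNA were compared in WT cells, because these messages are described as polyadenylated. The scaling sets each difference relative to the typical gene, so a value near 0 cannot settle that description for a single variant. The RNA selection and the sequencing experiment differ together between the 2 kinds of library and cannot be told apart. Of the 9 variants, 7 were higher in polyA RNA and 1 was lower at a limma adjusted p under 0.05. Among all 12481 genes tested 40.1% were higher and 40.8% lower. Their median difference was 0.52 on the log2(scaled TPM + 1) scale, beside -0.0075 for all genes.

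H1f0 was listed at 81.0, 79.8 and 83.4 TPM in the 3 polyA libraries and at 30.7 and 29.8 TPM in the WT 0 h ribodepleted libraries. H3f3a was listed at 938, 915 and 962 TPM in polyA RNA and at 367 and 360 TPM in ribodepleted RNA. For both genes the kinds of library were far apart, and these were the variants past 1.5-fold (18.7% of all genes were that much higher). Scaled levels were 2.46-fold higher for H1f0 (log2 difference 1.30, SE 0.041, adjusted p = 2.24e-08) and 2.40-fold for H3f3a (log2 difference 1.26, SE 0.044, adjusted p = 3.85e-08). H2afz (1.46-fold), Cenpa (1.45-fold), H2afv (1.44-fold), H2afj (1.21-fold) and H3f3b (1.19-fold) were higher by less. H2afy, encoding macroH2A1, was 11.4% lower in polyA RNA (adjusted p = 0.0016), and did not pass with deposited TPM (log2 difference -0.072, adjusted p = 0.0766).

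H2afx, the variant with the stem-loop shown above, was at 495, 493 and 487 TPM in polyA libraries, between the WT 0 h libraries at 409 and 520 TPM. Its difference was -0.010 on the log2 scale (95% interval of the fold 0.85 to 1.16, adjusted p = 0.927). The value rested on single libraries, since it was -0.22 (adjusted p = 0.00234) without WT 0 h replicate 1 and 0.18 (adjusted p = 0.00574) without WT 0 h replicate 2. The replication-dependent histone genes went one way. Of 68 listed, 61 were tested and all 61 were lower in polyA RNA, with a median of -7.91. The median was -8.06 for the 53 with the stem-loop and a stop codon window, and -6.72 for the 6 without a match. Hist2h2be had the smallest difference of them, -0.28. Of the further variant genes, H2afy2, encoding macroH2A2, and H1fx, encoding the linker histone H1x, were higher in polyA RNA, by 1.69-fold and 4.02-fold.

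**Figure D2:**
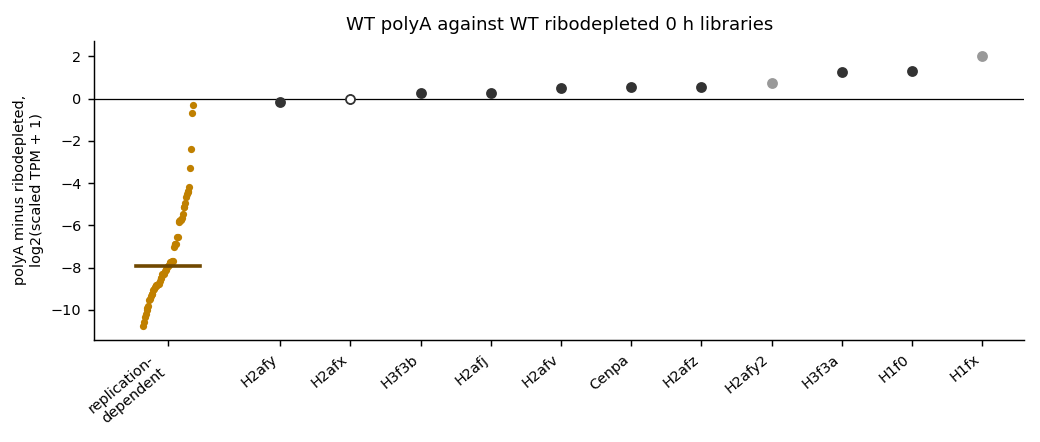
Difference between WT polyA (n = 3) and WT ribodepleted 0 h (n = 2) libraries in log2(scaled TPM + 1). Orange points are the 61 replication-dependent histone genes with their median as a bar, black points the 9 variants and grey points H2afy2 and H1fx, with 95% intervals that are mostly smaller than the points, and the open point did not pass. Variants lie between -0.17 and 1.30, and replication-dependent genes between -10.77 and -0.28.

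TKO and WT cells were then compared at 0 h and at 4 h. At 0 h, H2afz, H2afj, H1f0 and Cenpa were lower in TKO and H3f3b was higher, so that 4 of 9 variants fell and 1 rose. Of all 12467 genes tested, 28.2% were lower and 27.8% higher, and the median of the variants was -0.12 beside -0.019 for all genes. At 4 h, 7 of 9 were lower and 1 was higher, against 30.3% and 29.1% of all genes, with medians of -0.19 and -0.0051. The variants past 1.5-fold were H1f0 at 0 h (5.43% of all genes were that much lower) and H2afj, H1f0 and H2afz at 4 h (5.82%). H2afz fell short of that limit at 4 h with deposited TPM (-0.46), after quantile normalisation (-0.38), and without TKO 4 h replicate 1 (-0.53) or WT 4 h replicate 1 (-0.58). H1f0 fell short with deposited TPM at 0 h (-0.53) and at 4 h (-0.58) and with 5 TPM added before taking logs at 0 h (-0.53). In bulk RNA, fewer cells of a type and less RNA per cell cannot be told apart. S phase and mitotic genes moved in the same comparison, as 7 of 11 S phase genes and 7 of 10 G2 and mitosis genes were lower in TKO at 0 h, and 5 of 6 ESC markers were lower. Of the 4 fibroblast markers tested, 2 were higher in TKO at 0 h, among them Col1a2, which encodes a chain of type I collagen. Col1a2 went from a low 1.53 to 4.71 scaled TPM (2.26-fold with 1 TPM added, limma adjusted p = 3.07e-05). At 4 h Col1a2 was higher (2.20-fold) and Col3a1 lower. Of the markers not tested, Dcn and Lum had higher and Postn lower mean TPM in TKO at 0 h, none above 1.01. The part of these markers in the changes of the variants was not tested.

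The H2A.Z genes differed from each other. H2afz stood at 1234 and 1344 scaled TPM in the WT 0 h libraries and at 914 and 890 in the TKO 0 h libraries. After 4 h of α-amanitin it stood at 1612 and 1511 in WT and at 963 and 1079 in TKO. All 4 TKO libraries lay below all 4 WT libraries. H2afz was 29.9% lower in TKO at 0 h (log2 change -0.51, adjusted p = 4.65e-04) and 34.7% lower at 4 h (log2 change -0.61, SE 0.074, adjusted p = 1.48e-04). H2afv ranged from 57.0 to 74.9 scaled TPM in WT and from 65.0 to 79.3 in TKO, and did not pass at 0 h (log2 difference 0.18, adjusted p = 0.0575) or at 4 h (0.11, adjusted p = 0.221). At 0 h it passed with the deposited TPM (0.27, adjusted p = 0.00333), after quantile normalisation (0.25, adjusted p = 0.00921) and with voom on recovered reads (0.18, adjusted p = 0.0305). At 4 h it passed with the deposited TPM (0.26, adjusted p = 0.00375) and after quantile normalisation (0.21, adjusted p = 0.0216).

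H2afj, a single-exon gene encoding a mammalian H2A variant, stood at 40.6 and 45.2 scaled TPM in WT and at 30.9 and 29.4 in TKO at 0 h. At 4 h it stood at 46.8 and 46.4 in WT and at 26.5 and 27.9 in TKO. The genotypes did not overlap at either time. In TKO it was lower by 29.0% at 0 h (log2 change -0.49, adjusted p = 1.98e-04) and by 40.8% at 4 h (log2 change -0.76, SE 0.061, adjusted p = 1.68e-05).

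H1f0, encoding H1.0, was at 29.8 and 30.0 scaled TPM in WT and at 19.0 and 19.2 in TKO at 0 h, and at 30.6 in both WT libraries and 17.9 and 18.2 in TKO at 4 h. The genotypes were apart at both times. Its fall in TKO was 34.8% at 0 h (log2 change -0.62, adjusted p = 1.35e-05) and 39.8% at 4 h (log2 change -0.73, SE 0.047, adjusted p = 5.40e-06). The linker histone gene H1fx was likewise lower, from 15.1 to 9.20 scaled TPM at 0 h (log2 change -0.66, adjusted p = 7.21e-05) and from 18.1 to 10.1 at 4 h (log2 change -0.78, adjusted p = 2.49e-05).

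Of the H3.3 genes, H3f3b was the one that rose. It stood at 505 and 519 scaled TPM in WT 0 h libraries against 611 and 609 in TKO 0 h libraries, and at 598 and 567 against 635 and 648 at 4 h. The genotypes were apart at each time. It was 19.1% higher in TKO at 0 h (log2 change 0.25, adjusted p = 0.00235) and 10.2% higher at 4 h (log2 change 0.14, SE 0.049, adjusted p = 0.0352). H3f3a stood at 356 and 362 scaled TPM in WT and 342 and 343 in TKO at 0 h, which did not pass (log2 difference -0.067, adjusted p = 0.300), and was 9.04% lower at 4 h (adjusted p = 0.0476). That direction depended on the scaling. With deposited TPM the 4 h difference of H3f3a was 0.021, and after quantile normalisation 0.080 (adjusted p = 0.0475, higher in TKO). Deposited TPM moved the median change of all genes at 4 h from -0.0051 to 0.14.

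Cenpa, encoding the centromeric H3, was at 131 and 130.1 scaled TPM in WT and 117 and 113 in TKO at 0 h, 11.7% lower (log2 change -0.18, SE 0.047, adjusted p = 0.0111), which did not pass with deposited TPM (-0.085, adjusted p = 0.159). At 4 h it was 9.47% lower (adjusted p = 0.0277), whereas the difference was 0.013 with deposited TPM and 0.00095 after quantile normalisation. H2afy ranged from 129 to 161 scaled TPM in WT and from 120 to 146 in TKO, with no pass at 0 h (log2 difference -0.11, adjusted p = 0.123) and a 12.1% fall at 4 h (adjusted p = 0.0153). H2afx stood at 509 and 507 scaled TPM in WT and 401 and 376 in TKO at 4 h, a fall of 23.5% (log2 change -0.39, SE 0.11, adjusted p = 0.0133). At 0 h its WT libraries, at 396 and 524, enclosed those of TKO at 420 and 421. That difference was -0.12 (adjusted p = 0.383), with -0.32 (adjusted p = 0.00454) without WT 0 h replicate 1 and 0.078 without WT 0 h replicate 2.

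The smaller changes depended on the scaling and on single libraries. At 4 h H2afx and H2afy did not pass with deposited TPM (-0.23, adjusted p = 0.072, and -0.030, adjusted p = 0.609) or after quantile normalisation (-0.16, adjusted p = 0.24, and -0.016, adjusted p = 0.773). At 0 h, Cenpa did not pass without TKO replicate 2 (-0.16, adjusted p = 0.0851). At 4 h, H2afx did not pass without TKO replicate 2 (-0.34, adjusted p = 0.0642) or WT replicate 1 (-0.39, adjusted p = 0.0536), and H2afy without TKO replicate 1 (-0.11, adjusted p = 0.0598) or WT replicate 2 (-0.17, adjusted p = 0.072). H3f3a did not pass at 4 h without TKO replicate 1 (-0.075, adjusted p = 0.187), WT replicate 1 (-0.11, adjusted p = 0.194) or WT replicate 2 (-0.18, adjusted p = 0.0605). H3f3b did not pass at 4 h without TKO replicate 2 (0.13, adjusted p = 0.055), WT replicate 1 (0.17, adjusted p = 0.0574) or WT replicate 2 (0.093, adjusted p = 0.257). For these H3.3 genes, each of 3 libraries decided the call. Cenpa did not pass at 4 h without TKO replicate 1 (-0.13, adjusted p = 0.0782) or WT replicate 1 (-0.10, adjusted p = 0.171). In each of these settings 1 group had a lone library, which was assumed to vary like the other groups. H2afz, H2afj and H1f0 passed at both times whichever library was left out.

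**Figure D3:**
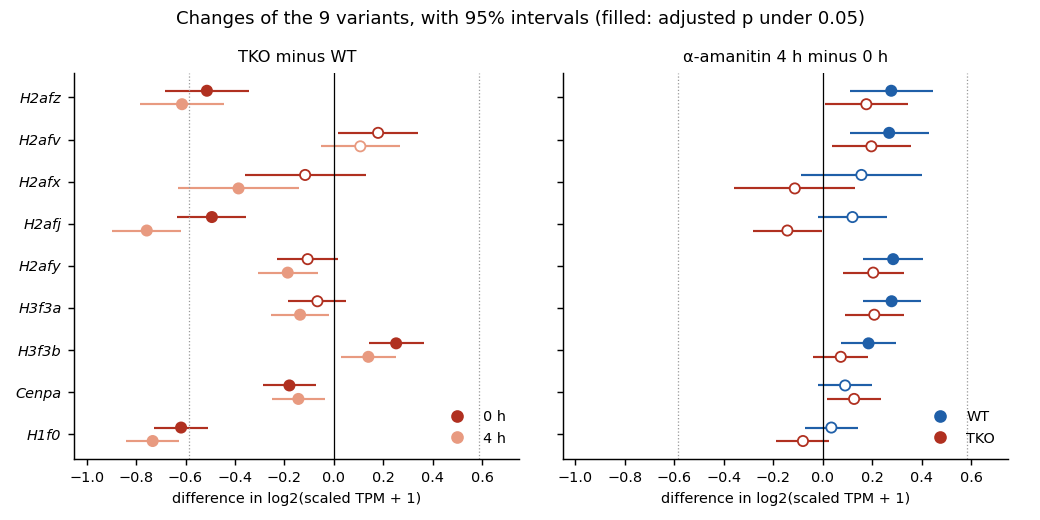
Differences of the 9 variants in log2(scaled TPM + 1) with 95% intervals, TKO minus WT at left (dark red 0 h, light red 4 h) and 4 h minus 0 h of α-amanitin at right (blue WT, red TKO). Filled points had an adjusted p under 0.05 and dotted lines mark 1.5-fold, with H2afz, H2afj and H1f0 farthest to the left and H3f3b to the right in the genotype panel.

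Pairs of genes that encode the same or a similar protein were set against each other within each library, since such a share does not depend on scaling. H3f3a and H3f3b encode proteins with 0 different residues of 136, from coding sequences of 411 bases that differ at 95 of them. The first 120 coding bases of each are shown because reads can be assigned to one gene or the other through such differences. Capitals mark the 24 bases that differ.
H3f3a: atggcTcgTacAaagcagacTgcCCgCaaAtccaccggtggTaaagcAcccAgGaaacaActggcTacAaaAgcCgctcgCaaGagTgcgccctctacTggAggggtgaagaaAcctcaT
H3f3b: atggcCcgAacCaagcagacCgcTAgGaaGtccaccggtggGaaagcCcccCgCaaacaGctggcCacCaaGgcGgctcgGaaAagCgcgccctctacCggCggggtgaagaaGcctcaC
H2afz and H2afv have coding sequences of 387 bases with 79.1% identity and differ at 3 of 128 residues. H2afy and H2afy2 are less alike, at 69.5% identity over their alignment.

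H3f3b took 58.66% and 58.9% of H3.3 transcripts in the WT 0 h libraries, 57.32% and 57.07% in WT at 4 h, 64.07% and 63.95% in TKO at 0 h, and 62.5% and 61.13% in TKO at 4 h. Every TKO library was above every WT ribodepleted library. The mean was 62.9% ± 1.39 in TKO and 58.0% ± 0.92 in WT (SD, n = 4 libraries each, both times pooled), a difference of 4.93 percentage points. The two-sided exact permutation p, with libraries exchanged across times, was 0.0286 (0.0286 after adjustment over 3 shares). That is the smallest that 4 against 4 can give. In WT polyA RNA the same share was 41.4% ± 0.20 (SD, n = 3), so that H3f3a had the higher TPM there and H3f3b in ribodepleted RNA. These kinds of library also differ in sequencing experiment. Genes on the opposite strand overlap H3f3a, so antisense reads may enter its values.

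H2afv took 6.85% ± 0.14 of H2A.Z transcripts in TKO and 4.30% ± 0.15 in WT ribodepleted libraries (SD, n = 4 each, exact permutation p = 0.0286, adjusted p = 0.0286). TKO libraries ranged from 6.64% to 6.95% and WT libraries from 4.15% to 4.44%, while WT polyA libraries lay between 4.15% and 4.37%. Here the WT values of both kinds of RNA overlapped, and for the H3.3 share they did not. H2afy2 took 16.8% ± 0.51 of macroH2A transcripts in TKO and 14.3% ± 0.42 in WT (exact permutation p = 0.0286, adjusted p = 0.0286), and 24.0% ± 1.05 in WT polyA RNA. The share of H2afy2 ranged from 16.07% to 17.13% in TKO and from 13.77% to 14.68% in WT, so the genotypes did not overlap. Within a time, 2 libraries face 2 and the smallest possible p is 0.333, which each share reached at each time, with differences of 5.24 and 4.62 points for H3f3b, 2.49 and 2.60 for H2afv, and 3.07 and 1.94 for H2afy2 at 0 h and 4 h. The 4 libraries of a genotype hold both times, so they are not replicates of 1 condition. The permutation exchanged libraries of both times freely, so its p of 0.0286 does not hold time fixed. Paired by replicate number within a time, each share gave an exact permutation p of 0.125, the smallest possible. The summed deposited TPM of H2afz and H2afv was lower in TKO at 0 h (1046 ± 10.7) than in WT (1362 ± 42.5). That of H3f3a and H3f3b was higher (1030 ± 5.88 against 881 ± 8.98, SD, n = 2 each, not tested). In scaled TPM the H2A.Z sums at 0 h were 968 in TKO and 1347 in WT, and the H3.3 sums 953 and 871. At 4 h the scaled H3.3 sums overlapped, at 1016 to 1060 in TKO and 993 to 1043 in WT. The deposited ones did not, at 1039 to 1058 and 914 to 929.

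**Figure D4:**
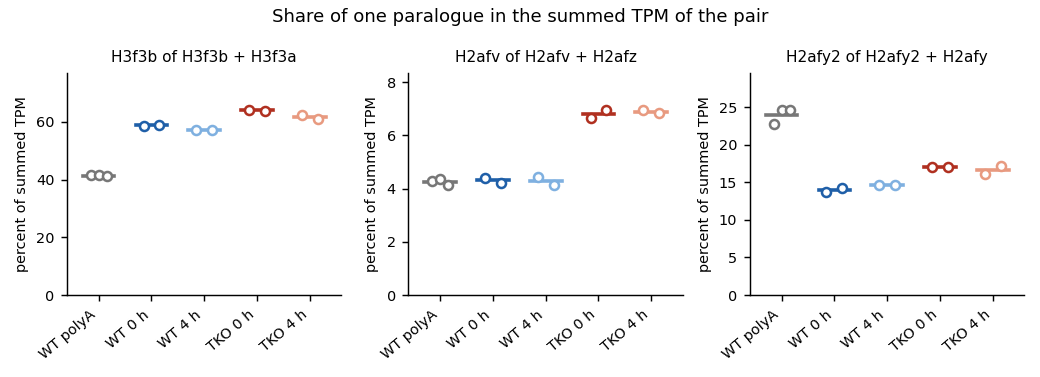
Percent of the summed TPM of a gene pair that came from the gene named first, in all 11 libraries, with vertical axes that start at 0. Circles are libraries and bars group means, and TKO libraries lie above WT ribodepleted libraries in each panel.

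Exposure to α-amanitin asks how transcripts persist once RNA polymerase II is inhibited. TPM is relative within a library, and the scaling sets it relative to the typical gene. A higher scaled value after 4 h therefore need not be a larger part of the remaining RNA or more molecules. In WT cells, 5 of 9 variants were higher at 4 h and 0 were lower, where 21.9% of all genes were higher and 15.8% lower. None passed 1.5-fold, as did 0.0882% of all genes upwards and 2.01% downwards. The median of the variants was 0.19 and that of all genes 0.028. The variants were H2afy (21.8% higher, adjusted p = 0.00764), H3f3a (21.3%, adjusted p = 0.00749), H2afz (21.2%, adjusted p = 0.0213), H2afv (20.5%, adjusted p = 0.0199) and H3f3b (13.7%, adjusted p = 0.0201). H1f0 differed least (log2 difference 0.035, adjusted p = 0.585). With deposited TPM, 1 variant passed as higher, as did 3.18% of all genes, and after quantile normalisation 1 variant and 12% of all genes. Deposited TPM moved the median of all genes from 0.028 to -0.11, and under it H2afj, H1f0, Cenpa and H2afx had negative differences. The count was 2 without WT 0 h replicate 1 (5.91% of all genes were higher) and 0 without WT 4 h replicate 1 (0.815%). H2afx was at 0.16 with all libraries, -0.046 without WT 0 h replicate 1 and 0.36 (adjusted p = 0.0262) without WT 0 h replicate 2. In the same comparison 42 of the 61 replication-dependent histone genes were lower and 0 higher, with a median of -0.27, and 9 of 11 S phase genes were higher.

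In TKO cells, 0 of 9 variants passed in limma (6 had an unadjusted p under 0.05, as did 24.9% of all genes). In limma, 0% of all genes passed as higher and 0.265% as lower. With voom on recovered reads, 2 variants passed as higher, H2afy (0.21, adjusted p = 0.0387) and H3f3a (0.21, adjusted p = 0.0311), as did 1.88% of all genes, and 4.03% of all genes were lower. H3f3a stood at 342 and 343 scaled TPM at 0 h and at 381 and 412 at 4 h, and H2afy at 122 and 120 against 132 and 146. The TKO 4 h libraries differed more from each other than those at 0 h. Without TKO 4 h replicate 1, 4 variants passed, namely H2afz (0.26), H2afv (0.27), H2afy (0.28) and H3f3a (0.27), and 12.7% of all genes were then higher and 9.85% lower. The difference between genotypes in the response passed for 0 of 9 variants in limma and in voom (lowest limma adjusted p = 0.662, for H2afj). Of the 9, 1 had an unadjusted p under 0.05, as did 7.52% of all genes, of which 0% passed. The 95% interval of the interaction allowed a ratio of the responses between 0.79 and 1.10 for H2afz and between 0.83 and 1.03 for H3f3b. An equal response was therefore not shown.

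Factors that deposit, exchange, bind, remove or phosphorylate these variants were counted from 5 lists, which hold 40 genes with 39 tested. They are called the listed factors below. At 0 h, 25 were lower in TKO and 2 higher, with a median of -0.23, and at 4 h 24 were lower and 1 higher (median -0.23). Among all genes 28.2% were lower and 27.8% higher at 0 h (median -0.019), and 30.3% and 29.1% at 4 h (median -0.0051). The 2 listed factors higher in TKO at 0 h were Atrx, from the H3.3 chaperones (limma, log2 change 0.56, adjusted p = 3.45e-04), and Nap1l1 (0.13, adjusted p = 0.0453). Atrx was also the 1 higher at 4 h (log2 change 0.46, adjusted p = 8.9e-04). Of 8 H3.3 chaperones 6 were lower at 0 h, of 10 tested H2A.Z exchange factors 8, of 6 CENP-A loading and binding factors 4, of 10 general histone chaperones 6, and of 5 H2A.X kinases and readers 1. Ruvbl1, an ATPase of the complexes that exchange H2A.Z, went from 267 to 145 scaled TPM at 0 h (log2 change -0.88, adjusted p = 6.42e-06), with a log2 change of -0.90 at 4 h (adjusted p = 5.43e-06). Oip5, the Mis18 subunit that helps to load CENP-A, went from 38.4 to 21.4 (log2 change -0.82, adjusted p = 1.07e-05) with a log2 change of -0.80 at 4 h (adjusted p = 1.09e-05). Asf1a, an H3-H4 chaperone, went from 62.6 to 41.3 (log2 change -0.59, adjusted p = 2.65e-05), with -0.62 at 4 h (adjusted p = 1.76e-05). Nasp, which holds soluble H3-H4, passed 1.5-fold at 4 h, from 566 to 365 (log2 change -0.63, adjusted p = 1.15e-04). Of the other variant histones 2 of 8 listed were tested, H1fx, which is given above, and H2afy2, which was higher in TKO at 0 h (log2 change 0.22, adjusted p = 0.0387) and did not pass at 4 h (adjusted p = 0.815).

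Under α-amanitin in WT cells, 16 of the 39 listed factors were higher and 5 lower, beside 21.9% and 15.8% of all genes. The lowest adjusted p values were those of Rbbp7, a histone-binding WD40 protein (log2 change 0.28, adjusted p = 0.00606), Ubn1, a subunit of the HIRA complex (-0.41, adjusted p = 0.00716), and Anp32e, which removes H2A.Z (0.23, adjusted p = 0.00764). In TKO cells 0 of 39 passed in limma, and 13 had an unadjusted p under 0.05, beside 24.9% of all genes. Between polyA and ribodepleted RNA the listed factors went both ways, with 10 higher and 20 lower in polyA RNA (median -0.13). Among all genes 40.1% were higher and 40.8% lower. Past 1.5-fold, Mdc1 (1.15), Znhit1 (0.96) and Anp32e (0.82) were higher, and Atm (-1.18), Supt16h (-0.89), Hjurp (-0.61), Atrx (-0.60) and Rbbp7 (-0.60) were lower, as log2 differences.

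For the variants past 1.5-fold between genotypes, the genes with the most similar pattern over the 8 ribodepleted libraries were sought among those with a mean of at least 10 scaled TPM. For H2afz they were Nop10 (Pearson r = 0.9992) and Eif4e2 (0.9985), for H2afj Pus1 (0.9931) and Polr1b (0.992), and for H1f0 Zfp740 (0.9981) and Ercc2 (0.9972). H2afz itself correlated with H2afj at 0.912 and with H1f0 at 0.902. These coefficients describe 8 libraries that fall into 2 genotypes and share their scaling, and carry no p.

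Promoters are shown for the variants past 1.5-fold between genotypes, H2afz, H2afj and H1f0, which were lower in TKO, and for H3f3b, the variant that was higher. Each is the 250 bases before the RefSeq start on GRCm38.p6. A promoter was found for 8 of the 9 variants, and that of H2afx was not. The motif searched was CCAAT on either strand, which reads ATTGG on the other, and capitals mark it. It is the site of the factor NF-Y and a common element of histone promoters.
H2afz, chr3:137864237-137864486, plus strand: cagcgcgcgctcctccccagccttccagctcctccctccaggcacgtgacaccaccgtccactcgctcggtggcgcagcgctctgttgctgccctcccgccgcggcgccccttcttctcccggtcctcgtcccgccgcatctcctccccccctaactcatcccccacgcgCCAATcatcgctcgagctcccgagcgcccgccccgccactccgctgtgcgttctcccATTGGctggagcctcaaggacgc
H2afj, chr6:136807998-136808247, plus strand: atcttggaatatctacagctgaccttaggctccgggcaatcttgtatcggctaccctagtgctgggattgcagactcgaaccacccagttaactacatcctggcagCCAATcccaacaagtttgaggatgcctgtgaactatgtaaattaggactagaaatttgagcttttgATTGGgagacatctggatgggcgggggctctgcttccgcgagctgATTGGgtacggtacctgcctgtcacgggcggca
H1f0, chr15:79027962-79028211, plus strand: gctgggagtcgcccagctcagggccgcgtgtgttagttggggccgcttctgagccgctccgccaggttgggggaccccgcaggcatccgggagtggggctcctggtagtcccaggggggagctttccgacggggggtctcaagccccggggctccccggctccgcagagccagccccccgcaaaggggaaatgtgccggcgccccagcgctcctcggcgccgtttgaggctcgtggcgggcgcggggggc
H3f3b, chr11:116024505-116024754, minus strand: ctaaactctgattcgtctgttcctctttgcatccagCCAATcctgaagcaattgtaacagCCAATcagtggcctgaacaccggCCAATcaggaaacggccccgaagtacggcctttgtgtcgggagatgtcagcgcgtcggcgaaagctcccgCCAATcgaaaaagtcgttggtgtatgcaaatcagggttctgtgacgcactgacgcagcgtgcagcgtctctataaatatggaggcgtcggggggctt
CCAAT occurred at least once in 6 of the 8 promoters and in 33.9% of all 32851 RefSeq promoters of that length. The variants were taken from protein-coding entries, but no such limit was set for all promoters, here or for the CG median below. It occurred at least 2 times in 5 of the 8 and in 10.1% of all. The number of matches was 4 in H3f3b and H2afv, 3 in H2afj, 2 in H2afz and Cenpa, 1 in H3f3a and 0 in H2afy and H1f0, so genes with the motif were found among those lower in TKO and the one that was higher. The same windows held 28 CG dinucleotides in H2afz, 24 in H1f0, 19 in H3f3b and 9 in H2afj, beside a median of 6 over all promoters. A match describes the letters of the window and not binding.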

How the data were processed

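Each deposited file holds 1 TPM value per gene. Per the methods of the study, the authors removed reads of ribosomal and transfer RNA, aligned the rest with STAR to mm9 with RefSeq genes, and counted them with HTSeq. The conversion to TPM is described for the polyA libraries, and tool versions and the strand setting are not given in the sources used here. Genes on the opposite strand overlap H3f3a, H2afy, H2afy2 and H1fx in GENCODE M1. Their values are therefore uncertain, as are those of genes with processed copies elsewhere in the genome.

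TPM was divided by median-of-ratios size factors over the tested genes, and limma 3.58.1 (R 4.3.3) was run on log2(scaled TPM + 1) without a replicate block, with lmFit, a trended eBayes and 1 coefficient per ribodepleted group (12467 genes with a mean above 1 scaled TPM). The polyA comparison was a separate fit of 5 libraries (12481 genes). A gene passed at a Benjamini-Hochberg adjusted p under 0.05 over all genes tested, two-sided. Because 1 TPM was added before taking logs, fold changes of low genes are understated. Because the deposited values are TPM, a test on log values was chosen as the main test in place of a count test as in the study. Whole reads were recovered from the TPM steps for 100% of 19869 genes with a value above 0 (tolerance 0.01 reads) and entered only the voom alternative and the description of depth. Replicate pairs differed by more than counting noise (chi-square over its degrees of freedom of at least 1.53). Shares of gene pairs were compared with exact permutation tests in SciPy 1.17.1. Scripts were tested on simulated data.

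The variants and gene lists were chosen with earlier results of these data known. Named genes were the 9 variants, Tet1 to Tet3, H2afy2, and the listed factors and other variant histones past 1.5-fold in a comparison. Where fewer than 3 were past it, the 3 of lowest adjusted p among those that passed were named. The 2 genes of most similar pattern were named for each variant past 1.5-fold between genotypes or times. Hist2h2be, Lum, Dcn, Postn, Col1a2, Col3a1, Pou5f1, Zfp42, Nanog, Sox1, Nap1l1 and, between genotypes, Atrx were named after their values were seen. Mis18a was matched as 2610039C10Rik. Srcap and H3f3c were not analysed here. The alternatives tried are given at the end.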

Additional observations from a re-analysis of the deposited data

Results flagged for a closer look

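H2afj and H1f0 were singled out because WT and TKO libraries moved in opposite directions with α-amanitin, without overlap between the times. On scaled TPM, both WT libraries of each gene at 4 h were above both at 0 h, and both TKO libraries at 4 h were below both at 0 h. The difference between the responses was -0.2634 on the log2 scale for H2afj (limma adjusted p = 0.662) and -0.1149 for H1f0 (limma adjusted p = 0.687), so neither passed. With deposited TPM the WT change was negative for both, at -0.036 for H2afj and -0.12 for H1f0. H2afx also moved in opposite directions, by 0.16 in WT and -0.11 in TKO, but its WT libraries overlapped between the times. Its difference between the responses was -0.2694 (limma adjusted p = 0.687), the largest of the 9.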

How the results depend on the processing

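Several counts changed with the scaling. With deposited TPM, 2 variants passed as higher in TKO at 0 h and 2 at 4 h, and 3 as lower at 4 h. Further, 1 was higher in WT at 4 h and 0 were lower in polyA RNA. In the same order, 33.4%, 40.3%, 16.6%, 3.18% and 33.6% of all genes passed. After quantile normalisation the first 4 numbers of variants were 2, 3, 3 and 1, beside 27%, 26.7%, 29.2% and 12% of all genes. With voom on recovered reads, 2 passed as higher in TKO at 0 h (29.1% of all genes). In TKO cells 2 passed as higher at 4 h (1.88% of all genes). With no filter, 3 were higher in WT at 4 h (10.2% of all genes). Without a variance trend, 0 were higher in TKO at 4 h (29% of all genes). H3f3a (adjusted p = 0.0786) and Cenpa (adjusted p = 0.0586) no longer passed there as lower. H3f3a was also lost there with no filter (adjusted p = 0.0637). With a limit of 1.5-fold as well, 0 were higher and 1 lower in TKO at 0 h, and 0 higher and 3 lower at 4 h. Further, 0 were higher in WT at 4 h, and 2 higher and 0 lower in polyA RNA. Of all genes, 10.5% and 5.43%, 11% and 5.82%, 0.0882%, and 18.7% and 16.4% did so in the same order.

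Among the values of single variants, 665 of the alternatives kept their direction and side of the threshold, 44 lost a pass with the same direction and 14 gained one. In the other 24 the direction turned, and of these 3 also lost a pass, 1 gained one and 1 passed in the opposite direction. With deposited TPM, the differences of TKO against WT became 0.029 for H3f3a at 0 h, and 0.021 for H3f3a and 0.013 for Cenpa at 4 h. Those of 4 h against 0 h in WT became -0.0031 for H2afx, -0.036 for H2afj, -0.12 for H1f0 and -0.068 for Cenpa, that of H3f3b in TKO cells -0.025, and that of H2afx in polyA RNA 0.093. After quantile normalisation they became 0.061 for H3f3a at 0 h, 0.080 for H3f3a and 0.00095 for Cenpa at 4 h, -0.039 for H2afx and -0.033 for Cenpa in WT, -0.045 for H3f3b in TKO cells, and, for the interaction, 0.016 for H2afy and 0.020 for H3f3a.

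Leaving out 1 library at a time gave 0 to 1 variants higher and 4 to 6 lower in TKO at 4 h, 3 to 5 lower at 0 h, 0 to 5 higher in WT and 0 to 4 higher in TKO cells at 4 h, and 1 to 2 lower in polyA RNA. The difference of H2afx ranged from -0.32 to 0.078 between genotypes at 0 h, from -0.046 to 0.36 in WT at 4 h and from -0.22 to 0.18 in polyA RNA. The interaction ranged from -0.18 to 0.011 for H2afv and from -0.026 to 0.076 for Cenpa.

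Replicate numbers did not pair the samples (correlations of deviations from -0.044 to 0.12). With a replicate block, 6 variants and 30.4% of all genes were lower in TKO at 4 h, and H3f3a did not pass (adjusted p = 0.0585). The shares paired by number differed by 4.93, 2.54 and 2.51 points for H3f3b, H2afv and H2afy2 (exact p = 0.125, the smallest possible). Within times they were 5.24 and 4.62, 2.49 and 2.60, and 3.07 and 1.94. The causes were not tested. Groups of 2 libraries limit every ribodepleted value.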
